A study of Mus musculus with 6 samples.

Results

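The genes described here are 36 interferon-stimulated genes, among them the inducible subunits of the proteasome, in mouse beta cells that overexpress the long non-coding RNA Meg3. They were chosen by name, with earlier results of these data known. A gene was measured by the probe sets that the array annotation assigns to its symbol alone. All 36 of 36 listed genes were measured, by 366 of the 241419 probe sets on the array, out of 20416 genes in all. RNA was profiled on 6 Affymetrix arrays from MIN6-4N cells, a beta-cell line derived from a mouse insulinoma. In 1 group a clone carried a pcDNA expression plasmid with mouse Meg3, and in the other a clone carried the empty plasmid (vector). Both clones had been selected for 5 weeks in G418 at 750 µg/ml and were grown in low glucose medium with 15% serum and 500 µg/ml G418. Each group is 3 independent cultures of 1 clone, so a p-value here reflects only how much cultures of the same clone vary. An effect of Meg3 and other differences between the clones cannot be told apart. In the labels the name of the Meg3 clone varies, and they also mention a sort of the cells that no protocol describes.

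Interferons are secreted proteins that signal through receptors and JAK kinases to STAT factors. Type I interferons act through a complex that holds STAT2 and IRF9 and binds the interferon-stimulated response element of target promoters, while interferon gamma acts through the gamma-activated sequence and through IRF1. The target genes encode RNA sensors, nucleases, GTPases and ubiquitin-like modifiers that restrict viruses. They also encode proteasome subunits that change which peptides are cut for MHC class I, and this response is well known in beta cells of islets under immune attack.

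Values are log2 expression per gene, the mean of its probe sets on an array. Meg3 itself averaged 7.56 ± 0.34 in the Meg3 clone and 5.84 ± 0.19 in the vector clone (SD, n = 3 each), a rise of 1.72 (SE 0.19; limma adjusted p = 0.00756), so the arrays go with their labels. Without Meg3 replicate 3 that adjusted p was 0.0666. The beta cell label was borne out by Ins2, the second mouse insulin gene, at 12.60 ± 0.05 in the Meg3 clone and 12.54 ± 0.09 in the vector clone, far above the median of all genes (6.66). Of 9 measured leukocyte markers, 7 lay below that median. The mean of these markers spanned 5.62 to 5.73 on the Meg3 arrays and 5.62 to 5.71 on the vector arrays. Of the 9, 0 passed the limma test. At a limma unadjusted p under 0.05, 1 was lower and 1 higher, where all genes gave 4.28% and 2.68%. Meg3 replicate 1 and vector replicate 2 were the arrays least like the rest, with an SD of 0.63 and 0.85 around the median of the remaining arrays, against 0.42 to 0.48 for the others. Over the 36 genes vector replicate 2 read lower than the other vector cultures by a median of -0.22, and Meg3 replicate 1 differed from its own group by a median of -0.02. Over all genes the same medians were 0.08 for vector replicate 2 and 0.02 for Meg3 replicate 1.

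Most of the interferon-stimulated genes were lower in the Meg3 clone, but few passed the test over all genes, and 1 passed it in the other direction. Rsad2, Oasl2, Parp14 and Psmb8 fell by more than 1 on the log2 scale, while Sp110 rose by 1.14. In all, 4 of 36 were called lower and 1 higher (limma, Benjamini-Hochberg adjusted p under 0.05 over 20416 genes), where 0.465% of all genes were called lower and 0.201% higher. The median log2 difference of the 36 genes was -0.32, against 0.006 for all genes. In 27 the difference was negative, as in 48.4% of all genes, and in 9 it was positive, as in 51.6% of all genes. The Meg3 cultures all lay below the vector cultures for 18 of the 36 genes, against 6.39% of all genes, and all above them for 4, against 6.41%. At an unadjusted p under 0.05, 17 genes were lower and 2 higher, where all genes gave 4.28% and 2.68%. Because the 36 genes were chosen with earlier results of these data known, these shares are description only. In a bulk sample fewer expressing cells and less RNA per cell cannot be told apart.

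The number of calls depended on single arrays. Without vector replicate 2 it was 10 lower and 1 higher, where 1.33% and 0.382% of all genes were called. Without Meg3 replicate 1 it was 2 lower and 1 higher (all genes 0.299% and 0.0882%). It was 0 lower and 0 higher both without Meg3 replicate 2 (all genes 0.0833% and 0.0441%) and without Meg3 replicate 3 (0.0686% and 0.0392%). Sp110 alone stayed called without vector replicate 1 (0.206% lower and 0.0833% higher of all genes) and without vector replicate 3 (0.181% and 0.0637%), with 0 lower and 1 higher. The median difference stayed between -0.40 and -0.25 in these 6 fits.

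**Figure D1:**
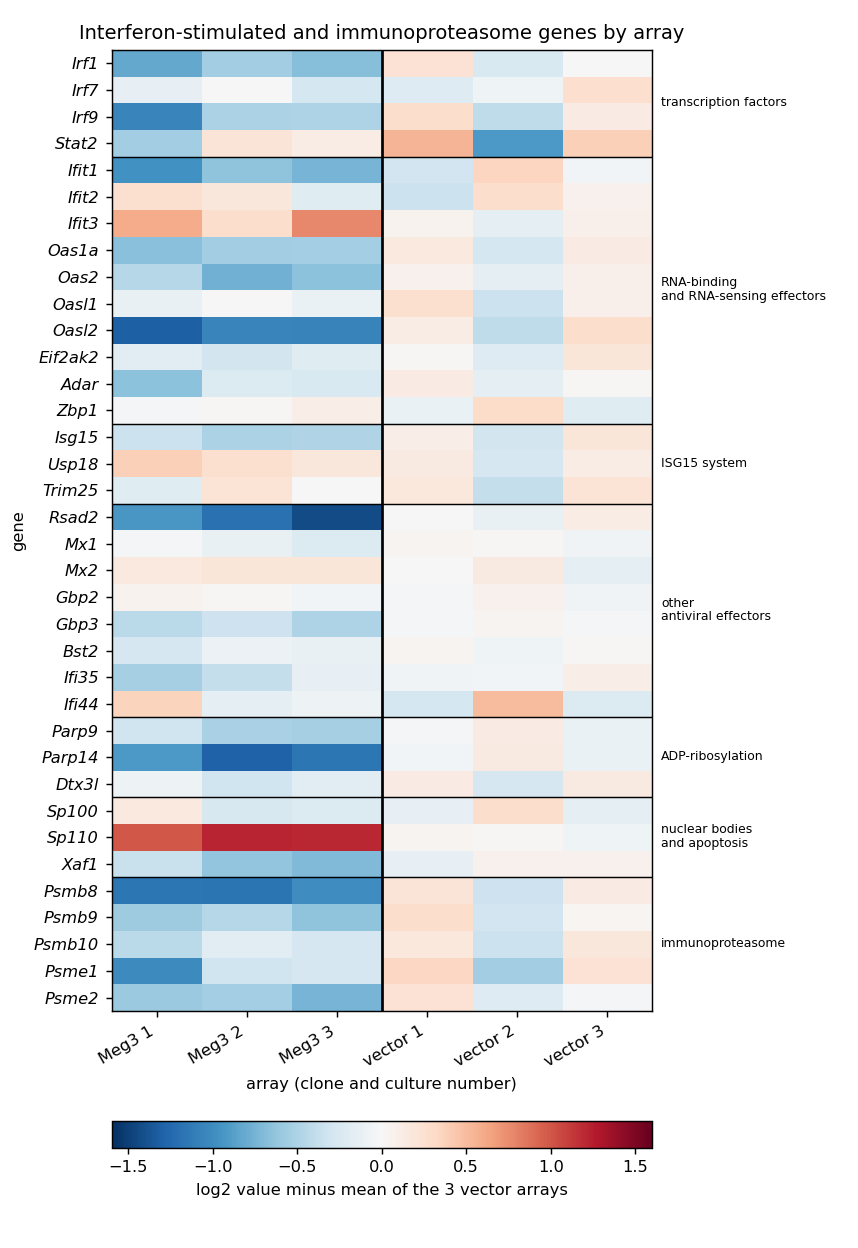
Each row is a gene and each column an array, with the 3 Meg3 cultures left of the 3 vector cultures; colour gives the log2 value minus the gene's mean over the vector arrays. Blue fills most of the Meg3 columns, Sp110 and Ifit3 are red there, and vector replicate 2 is bluer than its neighbours in several rows, most in Stat2.

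Promoter sequence was set beside these values, because genes that respond to interferon are known to carry short binding motifs near their start. RefSeq windows around the start (GRCm38.p6) were held for 29 of the 36 genes. The response element core, GAAA and GAAA with NN between them, on either strand, lay in a window of 11 of the 29 genes (37.9%), against 3.99% of all 27025 genes with a window. The gamma-activated core TTCNNNGAA, which reads the same on both strands, lay in 8 of the 29 (27.6%), against 9.55% of all genes. A match is a description of the letters, not a site that was shown to be bound. In Bst2 the motifs overlap each other. The sequences below are the 250 bases before the start, 5′ to 3′ on the strand of the gene, with matches in capitals. They show a gene that fell with a response element (Rsad2) and one that fell with a gamma-activated core (Psmb8). They also show a pair from the same chromosome with the same elements and opposite differences, neither of them called (Ifit1 and Ifit3). Rsad2 lies at chr12:26456453-26456702 on the minus strand, Psmb8 at chr17:34197945-34198194, Ifit1 at chr19:34640639-34640888 and Ifit3 at chr19:34583279-34583528 on the plus strand.
Rsad2: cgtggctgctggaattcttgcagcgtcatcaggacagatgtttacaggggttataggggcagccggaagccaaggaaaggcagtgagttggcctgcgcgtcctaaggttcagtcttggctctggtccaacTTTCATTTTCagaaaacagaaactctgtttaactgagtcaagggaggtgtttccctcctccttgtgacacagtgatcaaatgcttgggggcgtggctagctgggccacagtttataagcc
Psmb8: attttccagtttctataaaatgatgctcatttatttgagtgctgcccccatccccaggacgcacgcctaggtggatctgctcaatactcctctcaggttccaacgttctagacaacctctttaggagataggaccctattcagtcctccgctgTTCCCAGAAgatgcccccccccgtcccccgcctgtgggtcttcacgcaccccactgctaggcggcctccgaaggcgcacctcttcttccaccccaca
Ifit1: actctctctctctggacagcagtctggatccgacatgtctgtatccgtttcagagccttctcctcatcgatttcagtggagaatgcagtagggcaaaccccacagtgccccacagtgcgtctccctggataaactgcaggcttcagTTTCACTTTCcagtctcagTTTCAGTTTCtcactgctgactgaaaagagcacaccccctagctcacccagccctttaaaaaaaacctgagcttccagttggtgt
Ifit3: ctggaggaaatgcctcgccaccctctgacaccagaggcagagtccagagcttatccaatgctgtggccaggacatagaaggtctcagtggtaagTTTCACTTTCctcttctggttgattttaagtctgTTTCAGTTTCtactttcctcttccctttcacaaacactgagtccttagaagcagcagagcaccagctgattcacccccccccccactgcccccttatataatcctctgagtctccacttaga
The Rsad2 match begins 120 bases before the start and the Psmb8 match 97 bases before it. Ifit1 holds matches that begin 104 and 85 bases before the start, and Ifit3 holds the same letters 156 and 122 bases before it. Oasl2 and Sp110, which were also called, held neither motif in these windows, and Parp14 had no window. Gbp2 held a response element 59 bases before its start and differed by 0.01 (SE 0.11), so genes with the motif did not share 1 direction or size. That reading rests partly on dim genes. Gbp2 averaged 4.72 in the Meg3 clone and 4.71 in the vector clone, and Ifit1 and Ifit3 also lay below the median of all genes in each clone.

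Of the 4 transcription factors, 0 were called (limma; 2 lower at an unadjusted p under 0.05), and all 4 differences were negative (median -0.41). Of all genes 4.28% were lower at that unadjusted p, and 48.4% had a negative difference. Irf1, which activates genes downstream of interferon gamma, read 6.71, 6.98 and 6.85 on the Meg3 arrays, against 7.77, 7.30 and 7.54 on the vector arrays. The groups did not overlap (log2 difference -0.69, SE 0.15; limma adjusted p = 0.137), and all 14 Irf1 probe sets were lower. Irf9, the DNA-binding subunit of the complex that reads the response element, read 6.48, 7.04 and 7.05 on the Meg3 arrays, against 7.82, 7.13 and 7.67 on the vector arrays. Its groups only just stayed apart, with vector replicate 2 the lowest of its clone (-0.68, SE 0.22). Stat2, the partner of IRF9, read 7.14, 7.90 and 7.82 on the Meg3 arrays, against 8.23, 6.78 and 8.07 on the vector arrays. Its difference was -0.07 (SE 0.38), and vector replicate 2 differed from the mean of the other vector cultures by -1.38: without that array the Stat2 difference was -0.53, still not called. Irf7, the factor that amplifies type I interferon production, differed by -0.14 (SE 0.15) with overlapping groups.

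Among 10 genes whose proteins bind or sense RNA, Oasl2 was called lower and 0 were called higher. Of all genes 0.465% were called lower and 0.201% higher. Oasl2, an oligoadenylate synthetase-like protein, read 6.85, 7.10 and 7.09 on the Meg3 arrays, against 8.28, 7.75 and 8.45 on the vector arrays. The lowest vector culture exceeded the highest Meg3 culture, and Oasl2 was 2.21-fold lower (log2 difference -1.14, SE 0.19; limma adjusted p = 0.0454), with 8 of 9 probe sets lower. Leaving out any array but vector replicate 2 ended this call (adjusted p from 0.172 to 0.230), and without vector replicate 2 it was 0.00222. Its neighbour Oasl1 on chromosome 5, whose mouse protein restrains Irf7 translation, differed by -0.08 (SE 0.17) and its groups overlapped.

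The oligoadenylate synthetases make the small messenger that switches on RNase L. Oas1a read 5.57, 5.68 and 5.69 on the Meg3 arrays, against 6.39, 5.95 and 6.36 on the vector arrays (log2 difference -0.59, SE 0.15). Oas2 read 6.26, 5.95 and 6.06 on the Meg3 arrays, against 6.79, 6.56 and 6.80 on the vector arrays (-0.63, SE 0.13). Both genes had groups that did not overlap, and neither was called (limma adjusted p = 0.205 and 0.123). Of the Oas2 probe sets 12 of 14 were lower, but the brightest differed by 0.02. Adar, which edits double-stranded RNA, read 6.82, 7.26 and 7.24 on the Meg3 arrays, against 7.62, 7.33 and 7.50 on the vector arrays (-0.38, SE 0.16), with 17 of 19 probe sets lower and no overlap. Eif2ak2, the kinase PKR that halts translation on binding double-stranded RNA, differed by -0.23 (SE 0.13) with overlapping groups. Zbp1, a sensor of Z-form nucleic acid, read 5.71, 5.77 and 5.86 on the Meg3 arrays, against 5.64, 6.04 and 5.55 on the vector arrays. That is a difference of 0.03 (SE 0.15), and its groups overlapped.

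The Ifit genes, which encode proteins that bind viral RNA, lie together on chromosome 19 and differed among themselves. Ifit1 read 5.23, 5.55 and 5.45 on the Meg3 arrays, against 5.90, 6.54 and 6.15 on the vector arrays (log2 difference -0.79, SE 0.18; limma adjusted p = 0.155). Ifit3 read 5.70, 5.38 and 5.88 on the Meg3 arrays, against 5.16, 4.96 and 5.19 on the vector arrays (0.55, SE 0.15; limma adjusted p = 0.289). Neither was called, yet for each the clones did not overlap, and all 4 Ifit1 probe sets were lower while both Ifit3 probe sets were higher. Ifit2 read 7.70, 7.62 and 7.25 on the Meg3 arrays, against 7.10, 7.73 and 7.51 on the vector arrays, a difference of 0.08 (SE 0.19) with overlap. The difference between Ifit3 and Ifit1 within an array was 1.34 higher in the Meg3 clone, a comparison chosen after the values were seen. The exact two-sided permutation p was 0.1, which is the lowest possible with 3 against 3 (0.133 adjusted over 8 such contrasts). The annotation lists the related genes Ifit1bl1, Ifit3b and Ifit1bl2 between them, and copies this alike can share probe signal, so the Ifit3 value, which rests on 2 probe sets, is uncertain.

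The ISG15 system attaches the ubiquitin-like protein ISG15 to other proteins and removes it. The 3 genes grouped under it here are not the whole system, and they differed in direction. Isg15, the modifier, read 5.66, 5.49 and 5.52 on the Meg3 arrays, against 6.11, 5.71 and 6.20 on the vector arrays (log2 difference -0.45, SE 0.15; not called). Usp18, the protease that removes ISG15 and dampens receptor signalling, read 8.60, 8.48 and 8.40 on the Meg3 arrays, against 8.37, 7.95 and 8.33 on the vector arrays (0.27, SE 0.15). All Meg3 cultures lay above the vector cultures for Usp18 and below them for Isg15, and all 10 Usp18 probe sets were higher, but neither gene passed the test. Trim25, a ubiquitin ligase that acts in the RIG-I pathway, read 8.45, 8.87 and 8.65 on the Meg3 arrays, against 8.82, 8.26 and 8.86 on the vector arrays. Trim25 differed by 0.01 (SE 0.19), with overlap. Uba7, Ube2l6 and Herc6, which also belong to the system, were listed apart and are named after their values were seen. They were lower, by -0.26 (SE 0.12), -0.20 (SE 0.17) and -0.23 (SE 0.18), and were not called. The clones stayed apart for Uba7 and overlapped for Ube2l6 and Herc6.

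Rsad2 had the most negative difference of the 8 other antiviral effectors and of all 36 genes. Rsad2, viperin, a radical SAM enzyme that makes a chain-terminating nucleotide, read 7.89, 7.62 and 7.38 on the Meg3 arrays, against 8.83, 8.70 and 8.93 on the vector arrays. It averaged 7.63 ± 0.25 in the Meg3 clone and 8.82 ± 0.12 in the vector clone (SD, n = 3 each) and was 2.28-fold lower (log2 difference -1.19, SE 0.15; limma adjusted p = 0.0163). All 9 Rsad2 probe sets were lower, from -1.74 to -0.47. The call was lost without Meg3 replicate 2 (adjusted p = 0.116), without Meg3 replicate 3 (0.0986), without vector replicate 1 (0.0668) or without vector replicate 3 (0.0931).

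The other effectors differed less, and for 5 of the 8 both clones lay below the median gene of the arrays. Gbp3, a guanylate-binding GTPase, read 5.30, 5.41 and 5.24 on the Meg3 arrays, against 5.71, 5.78 and 5.72 on the vector arrays (log2 difference -0.42, SE 0.11). Gbp2, from the same family, read 4.76, 4.74 and 4.67 on the Meg3 arrays, against 4.70, 4.78 and 4.66 on the vector arrays. Gbp3 kept its clones apart, though its brightest probe set differed by 0.25, while the Gbp2 cultures overlapped. Ifi35, an interferon-induced leucine zipper protein, read 6.17, 6.32 and 6.56 on the Meg3 arrays, against 6.64, 6.65 and 6.80 on the vector arrays (-0.35, SE 0.14). Bst2, tetherin, which holds budding virus at the cell surface, differed by -0.16 (SE 0.11), with 3 of 5 probe sets lower and the brightest at 0.12. The clones did not overlap for either, and neither was called. The dynamin-like GTPase gene Mx1 differed by -0.12 (SE 0.11). Its paralog Mx2 read 4.88, 4.92 and 4.92 on the Meg3 arrays, against 4.73, 4.88 and 4.58 on the vector arrays (0.18, SE 0.12). The Mx2 clones met at 4.88 to the second decimal and stayed apart only beyond it, and the Mx1 cultures overlapped. Ifi44 read 5.33, 4.83 and 4.89 on the Meg3 arrays, against 4.69, 5.47 and 4.75 on the vector arrays, with 1 high culture in each clone (0.04, SE 0.23).

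PARP14, PARP9 and DTX3L act in ADP-ribosylation: PARP14 is a mono-ADP-ribosyltransferase, and PARP9 works in a complex with the ubiquitin ligase DTX3L. Their genes lie side by side on chromosome 16 with Dtx3l in the middle. Parp14 read 7.01, 6.63 and 6.78 on the Meg3 arrays, against 7.89, 8.07 and 7.83 on the vector arrays. It averaged 6.81 ± 0.19 in the Meg3 clone and 7.93 ± 0.13 in the vector clone (SD, n = 3 each) and was 2.18-fold lower (log2 difference -1.12, SE 0.14; limma adjusted p = 0.0132). All 18 Parp14 probe sets were lower, over a wide range from -2.41 to -0.04, and the brightest differed by -0.44. Parp9 read 7.63, 7.44 and 7.42 on the Meg3 arrays, against 7.94, 8.09 and 7.85 on the vector arrays (-0.46, SE 0.13; not called), with all 12 probe sets lower and no overlap. Dtx3l read 7.99, 7.74 and 7.90 on the Meg3 arrays, against 8.19, 7.80 and 8.20 on the vector arrays (-0.19, SE 0.15), and its groups overlapped. The difference between Parp14 and Dtx3l within an array, a contrast chosen after the values were seen, was -0.93 (exact permutation p = 0.1, the smallest possible). It was 0.09 when each gene was read by its brightest probe set, so it rests on the other probe sets. The Parp14 call was lost without Meg3 replicate 2 (adjusted p = 0.0982), without Meg3 replicate 3 (0.118), without vector replicate 1 (0.0597) or without vector replicate 3 (0.0613).

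Sp110 and Sp100 encode chromatin-associated speckled proteins of nuclear bodies, and XAF1 promotes apoptosis by opposing the inhibitor XIAP. Sp110 was the 1 gene of the 36 that was called higher. It read 7.99, 8.21 and 8.20 on the Meg3 arrays, against 7.03, 7.01 and 6.92 on the vector arrays, with about 1 log2 unit between the nearest cultures. Sp110 averaged 8.13 ± 0.12 in the Meg3 clone and 6.99 ± 0.06 in the vector clone (SD, n = 3 each) and was 2.21-fold higher (log2 difference 1.14, SE 0.12; limma adjusted p = 0.00672). All 14 Sp110 probe sets were higher, from 0.12 to 1.85. Leaving out Meg3 replicate 2 (adjusted p = 0.0601) or Meg3 replicate 3 (0.0638) ended the call, and it held without any other array.

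Sp110 belongs to a repeated family, so its value has a limit. Its 14 probe sets hold only 12 distinct rows of values, and counting identical ones once left it called. A further 12 probe sets are annotated to Sp110 together with other genes, among them C130026I21Rik, a related gene. They were not used for the gene value. C130026I21Rik, named after its values were seen, was itself called higher by its 1 own probe set (log2 difference 2.15, SE 0.24; limma adjusted p = 0.00766), a call lost without Meg3 replicate 2 (0.0568) or Meg3 replicate 3 (0.0783). Which of the copies carries the signal cannot be told apart with these probes. Sp100, separated from Sp110 by Sp140 on chromosome 1, read 5.32, 4.90 and 4.94 on the Meg3 arrays, against 5.02, 5.44 and 5.01 on the vector arrays. It differed by -0.10 (SE 0.17) and its groups overlapped. The difference between Sp110 and Sp100 within an array, also chosen after the values were seen, was 1.24 higher in the Meg3 clone (exact permutation p = 0.1, the smallest possible). Xaf1 read 5.41, 5.14 and 5.06 on the Meg3 arrays, against 5.63, 5.83 and 5.83 on the vector arrays (-0.56, SE 0.14; not called), without overlap.

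**Figure D2:**
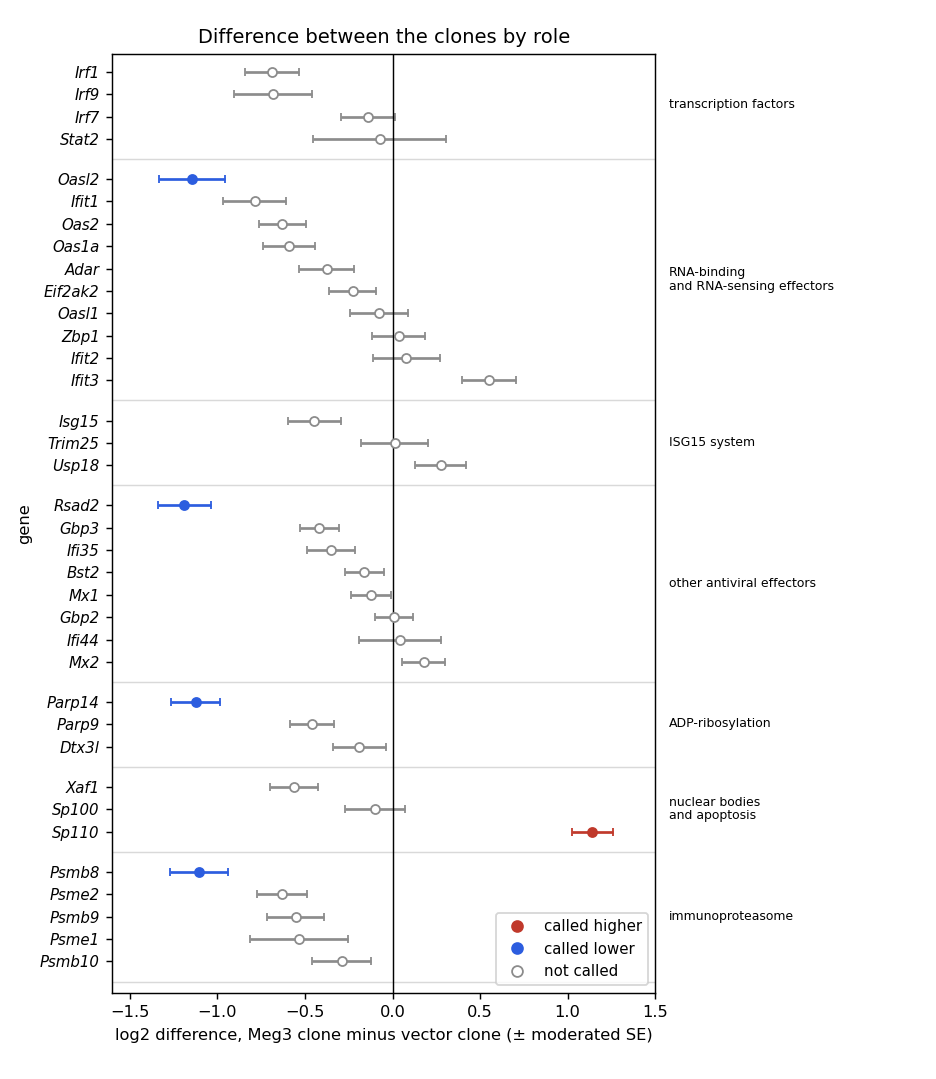
Points give the log2 difference, Meg3 clone minus vector clone, with its moderated SE, for the 36 genes grouped by role; filled points passed the test over all genes. The 4 genes called lower come from different role groups, and Sp110 at 1.14 is the 1 called higher.

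The immunoproteasome genes were all lower on average, with overlapping clones for Psmb10 and Psme1. Of the 5, 1 was called lower, where 0.465% of all genes were. Interferon replaces the catalytic subunits PSMB5, PSMB6 and PSMB7 of the proteasome core with PSMB8, PSMB9 and PSMB10, and adds the PA28 cap made of PSME1 and PSME2. Psmb8 read 6.26, 6.24 and 6.42 on the Meg3 arrays, against 7.61, 7.07 and 7.54 on the vector arrays. It averaged 6.30 ± 0.10 in the Meg3 clone and 7.41 ± 0.29 in the vector clone (SD, n = 3 each) and was 2.15-fold lower (log2 difference -1.10, SE 0.16; limma adjusted p = 0.0273). Of its 7 probe sets 6 were lower, and the brightest differed most, by -2.27. The call held without vector replicate 2 (adjusted p = 0.00165) and was lost without any other array (adjusted p from 0.112 to 0.174).

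Psmb9, which lies near Psmb8 in the MHC region of chromosome 17, read 7.67, 7.78 and 7.59 on the Meg3 arrays, against 8.51, 7.92 and 8.26 on the vector arrays (log2 difference -0.55, SE 0.16; not called). Psmb10 read 7.00, 7.26 and 7.16 on the Meg3 arrays, against 7.60, 7.09 and 7.61 on the vector arrays (-0.29, SE 0.17). The clones were apart for Psmb9 and overlapped for Psmb10, where vector replicate 2 lay among the Meg3 cultures. Psme1 read 9.86, 10.56 and 10.61 on the Meg3 arrays, against 11.21, 10.32 and 11.11 on the vector arrays (-0.53, SE 0.28), with overlap. Psme2 read 9.33, 9.38 and 9.18 on the Meg3 arrays, against 10.16, 9.72 and 9.89 on the vector arrays (-0.63, SE 0.14; limma adjusted p = 0.154), without overlap. All 9 Psme1 and all 4 Psme2 probe sets were lower. Vector replicate 2 read lowest of the vector cultures for all 5 of these genes.

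The constitutive counterparts did not pass the test in either direction. Of 16 constitutive proteasome genes measured 0 were called by limma, and their median difference was -0.06. At a limma unadjusted p under 0.05, 1 was lower and 0 higher, where all genes gave 4.28% and 2.68%. Psmb5 differed by -0.24 (SE 0.40), Psmb6 by -0.01 (SE 0.40) and Psmb7 by 0.11 (SE 0.16). Their vector cultures were widely spread, because vector replicate 2 differed from the mean of the other vector cultures by -1.37 for Psmb5, by -1.44 for Psmb6 and by -0.50 for Psmb7. The mean of the inducible catalytic subunits minus that of the constitutive ones was set on a scale where the vector clone averages 0. It was then -0.33, -0.83 and -0.64 on the Meg3 arrays, against -0.21, 0.41 and -0.20 on the vector arrays. The clones did not overlap and differed by -0.60, the smallest exact two-sided permutation p of 0.1 being reached (0.133 adjusted over 8 contrasts). Without vector replicate 2 the difference was -0.40. Taken pair by pair, it was -0.86 for Psmb8 and Psmb5, -0.54 for Psmb9 and Psmb6, and -0.39 for Psmb10 and Psmb7, with exact permutation p-values of 0.1, 0.3 and 0.1. Without vector replicate 2 these differences were -0.57, -0.21 and -0.40 in the same order. For the PA28 cap, the mean of Psme1 and Psme2 minus Psme3, the subunit of the nuclear cap, differed by -0.46 (exact permutation p = 0.3). That difference was -0.69 without vector replicate 2 and -0.28 without vector replicate 1.

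**Figure D3:**
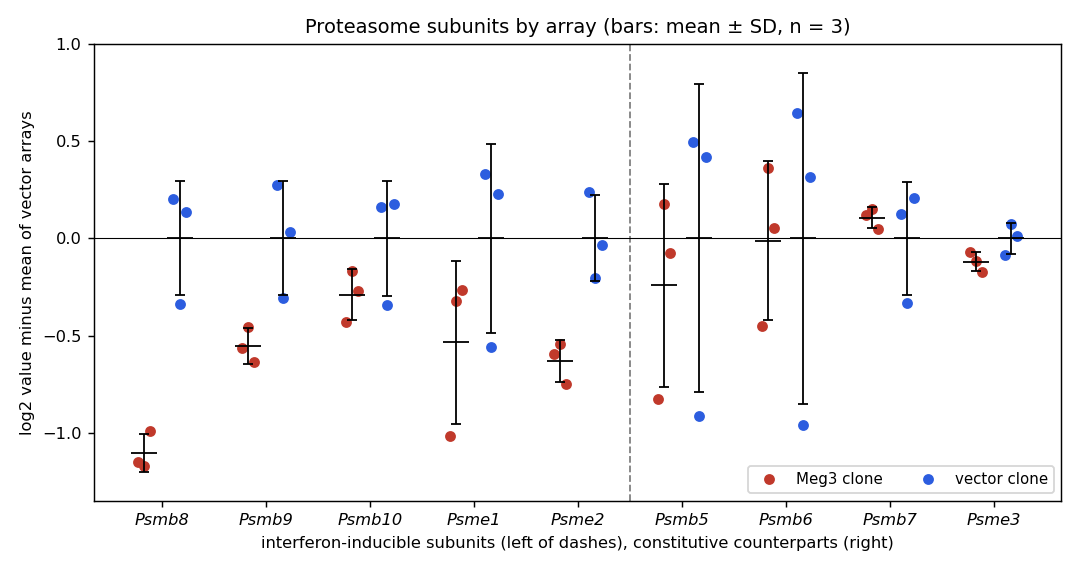
Log2 values per array, minus the mean of the vector arrays, for the inducible proteasome subunits and their constitutive counterparts, with the Meg3 clone left of the vector clone for each gene; bars are mean ± SD over 3 cultures. The Meg3 cultures sit near -1.10 for Psmb8, and the vector cultures of Psmb5 and Psmb6 are spread widely because 1 of them is low.

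Single probe sets read about an exon each and give a view of the genes that does not rest on averaging. Of the 366 probe sets 258 were lower and 108 higher in the Meg3 clone. The share of all probe sets that were lower was not counted, so these counts, also those by role, are description only. By gene, 48.4% of all differences were negative. Tested singly over 212097 probe sets, 0 of the 366 were called by limma, where 0.0033% of all probe sets were called lower and 0.000471% higher. The immunoproteasome had 33 of 37 probe sets lower, the ADP-ribosylation genes 35 of 36 and the transcription factors 49 of 61. The ISG15 system genes of the 36 had 9 of 27 lower, since Usp18 and Trim25 contributed most of their probe sets. Probe sets of 1 gene share their RNA and are not replicates.

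**Figure D4:**
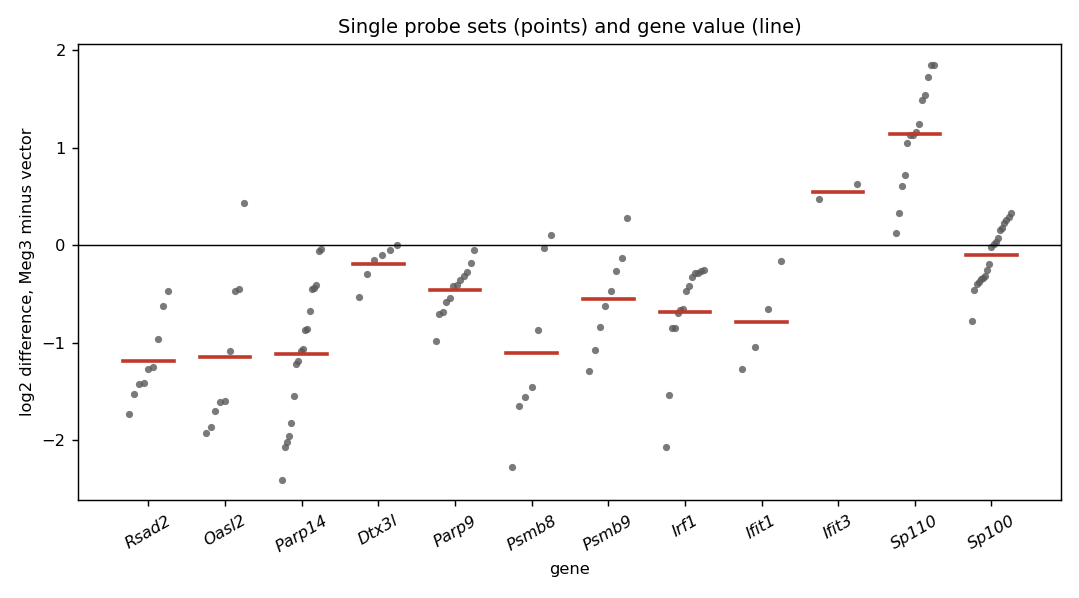
Each point is the log2 difference, Meg3 minus vector, of a probe set of the named gene, and the line is the gene value. Rsad2, Parp14, Parp9, Irf1 and Ifit1 have every point below 0, Sp110 and Ifit3 every point above it, and Sp100 points on both sides.

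Genes upstream of the response were set beside the targets. Of 10 measured receptor, kinase and STAT genes 0 were called by limma, with a median difference of -0.11. At a limma unadjusted p under 0.05, 2 were lower and 0 higher, where all genes gave 4.28% and 2.68%. The type I receptor genes Ifnar1 and Ifnar2 differed by -0.13 (SE 0.13) and -0.25 (SE 0.13), and the interferon gamma receptor genes Ifngr1 and Ifngr2 by -0.06 (SE 0.11) and -0.64 (SE 0.26). For Ifngr2 vector replicate 2 differed from the mean of the other vector cultures by -0.87. Jak1, the kinase shared by these receptors, read 10.83, 10.96 and 10.95 on the Meg3 arrays, against 10.63, 10.18 and 10.79 on the vector arrays (0.38, SE 0.17). Jak1 thus lay higher in each Meg3 culture, with all 28 probe sets higher, but did not pass the test. Tyk2, the kinase bound to IFNAR1, differed by -0.09 (SE 0.22). Among 8 feedback inhibitors 0 were called (limma; also 0 in each direction at an unadjusted p under 0.05), and Socs1, which blocks JAK kinases, differed by -0.21 (SE 0.19). Of 4 other interferon regulatory factors 0 were called (limma; 0 at an unadjusted p under 0.05), with Irf3, which switches on interferon genes after RNA sensing, at -0.28 (SE 0.18). Of 6 interferon genes 0 were called (limma; 0 at an unadjusted p under 0.05), and 4 lay below the median of all genes.

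Another 33 interferon-stimulated genes, listed apart from the 36, gave 3 called lower and 0 higher, against 0.465% and 0.201% of all genes, with a median of -0.22. This list too was written with earlier results of these data known, so its counts are description only. Rtp4, a chaperone of membrane receptors, read 6.67, 6.54 and 6.94 on the Meg3 arrays, against 7.81, 8.00 and 7.91 on the vector arrays (log2 difference -1.19, SE 0.14; limma adjusted p = 0.00975). The RNA sensor genes Ifih1 and Ddx58 were the other 2, at -1.13 (SE 0.13; limma adjusted p = 0.00809) and -1.08 (SE 0.11; limma adjusted p = 0.00713). Rtp4 lost its call without Meg3 replicate 2 (adjusted p = 0.0729) or vector replicate 3 (0.0613). Ifih1 lost it without Meg3 replicate 2 (0.0627), Meg3 replicate 3 (0.0585) or vector replicate 3 (0.0503), and Ddx58 without Meg3 replicate 2 (0.0560) or Meg3 replicate 3 (0.0638). The clones did not overlap for any of these 3, and 27 of the 33 differences were negative, against 48.4% of all genes. The Meg3 cultures all lay below the vector cultures for 12 of the 33 (6.39% of all genes) and all above them for 2 (6.41% of all genes).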

How the data were processed

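The deposited values are log2 expression per probe set from 6 Affymetrix arrays, made by the authors with RMA and Partek, per the submitters' processing notes. For the software versions and the genome build, the entry is: not given in the sources used here. RMA corrects background, quantile-normalizes the arrays and summarises probes, so differences are relative to the other arrays. There is no read depth on an array, so precision is limited by the number of arrays, 3 per clone.

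Probe sets with exactly 1 gene symbol in the platform annotation (212097 of 241419) were averaged to 20416 genes per array. The 4475 probe sets with several symbols and the 24847 with none were left out of the gene values. Of the array's genes 20363 were found in the RefSeq gene table. The test was limma's moderated test (version 3.58.1, R 4.3.3; lmFit, then eBayes) with clone as its only term, with Benjamini-Hochberg adjustment over all genes and a threshold of 0.05. The fit was tested on simulated data. SE is the moderated standard error. Single contrasts within arrays had exact two-sided permutation tests over the arrays.

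The 36 genes, the other gene lists and the tests were chosen with earlier results of these data known. All 36 may be named, as may the called genes of the other lists (at most the 4 with the largest differences) and a set of named pathway genes. Values on every array are given for genes of the 36 that were called, had an unadjusted p under 0.05 or had a positive difference. A few listed genes are not analysed here. Alternatives covered the summary of probe sets, scaling, the filter on dim genes, the variance model, the replicate number and the arrays left out. One more, counting probe sets with identical values once, was chosen after seeing the data. Promoter windows came from RefSeq (GRCm38.p6), and 7 of the 36 genes had none.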

Additional observations from a re-analysis of the deposited data

Results flagged for a closer look

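Probe sets that the annotation gives to several genes were left out of the gene values, and those of Sp100 and Sp110 read higher on every Meg3 array than on any vector array. Sp100 shares 2 probe sets with some or all of Gm7582, Gm7609 and LOC671917. They averaged 8.00 ± 0.26 in the Meg3 clone and 7.18 ± 0.23 in the vector clone (SD, n = 3 each), 0.82 higher in the Meg3 clone. Sp100's own probe sets differed by -0.10. Sp110 shares 12 probe sets with C130026I21Rik, LOC100041057 or both. They averaged 8.80 ± 0.14 in the Meg3 clone and 8.28 ± 0.08 in the vector clone (SD, n = 3 each), 0.51 higher in the Meg3 clone. Of the 12, 9 were higher. In the other direction, the 1 probe set shared by Psme2 with Psme2b-ps averaged 8.67 ± 0.04 in the Meg3 clone and 9.20 ± 0.32 in the vector clone (SD, n = 3 each), a difference of -0.53 without overlap. The 8 probe sets shared by Oas1a with Oas1g averaged 6.59 ± 0.07 in the Meg3 clone and 6.88 ± 0.33 in the vector clone (SD, n = 3 each). That is a difference of -0.29, with 5 lower, 3 higher and overlapping clones. The 1 probe set shared by Parp9 and Dtx3l differed by -0.40, also with overlap. No test was run on these shared probe sets.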

How the results depend on the processing

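The count of the 36 genes called depended on the processing. Against 4 lower and 1 higher, the numbers called were 1 lower and 0 higher with the brightest probe set of each gene (Psmb8; 0.137% and 0.0588% of all genes), 1 lower and 0 higher with the median of its probe sets (Rsad2; 0.206% and 0.0784%), and 0 and 0 with an ordinary linear model, which called 0 of all genes too. Array weights gave 21 lower and 3 higher, where 7.93% and 5.21% of all genes were called. Without both arrays least like the rest, Meg3 replicate 1 and vector replicate 2, the counts were 16 lower and 1 higher, where 4.01% and 1.43% were called. Leaving out single arrays gave 0 to 10 lower and 0 to 1 higher. Centring, the filter on dim genes and counting identical probe sets once kept all 5 calls, a second quantile normalization kept 4 of them, and trend with robust estimation kept 4.

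The replicate block gave 0 lower and 0 higher (0.0931% and 0.0539% of all genes). Deviations of same-numbered cultures correlated at -0.61, -0.63 and 0.28. The array least like the rest has a different number in each clone, so these correlations cannot decide whether the numbers pair the cultures.

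The median difference of the 36 genes (-0.32) was -0.45 without the dimmest genes, where 27 of the 36 were left, and -0.22 with the median of probe sets, and between -0.40 and -0.25 without single arrays. The inducible minus constitutive catalytic difference (-0.60) was -1.14 with the brightest probe sets. With the brightest probe sets Ifit3 minus Ifit1 was 1.90, Sp110 minus Sp100 0.87 and Psmb8 minus Psmb5 -2.21.

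Meg3 itself was no longer called with the brightest probe set (2.02), the median of probe sets (3.33) or the ordinary model (1.72), and its difference was 1.55 to 1.88 without single arrays. Over 17 alternatives no called gene of the 36 changed sign, and 12 genes changed sign in at least 1 alternative while not called. The cause of these shifts was not tested. Of the 36 genes, 13 had a level under the median gene in each clone, and precision by level was not tested. Among these 13 the moderated SE was 0.11 for Gbp2 and 0.23 for Ifi44. Among the brighter genes it was 0.11 for Bst2 and 0.38 for Stat2. The 3 arrays per clone limit every call.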

Other observations

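Some other interferon-stimulated genes, named after their values were seen, had clones that did not overlap, in either direction, without passing the test. Cxcl10, a chemokine that draws T cells, read 7.50, 7.92 and 7.72 on the Meg3 arrays, against 9.93, 8.15 and 9.79 on the vector arrays (log2 difference -1.57, SE 0.42; limma adjusted p = 0.254). Vector replicate 2 lay close to the Meg3 cultures. Dhx58, the RNA sensor LGP2, differed by -0.54 (SE 0.11; limma adjusted p = 0.108). Gbp6, a guanylate-binding GTPase, differed by -0.56 (SE 0.12; limma adjusted p = 0.123). Tap1, which carries peptides to MHC class I and lies between Psmb8 and Psmb9, differed by -0.37 (SE 0.12; limma adjusted p = 0.433). Ifitm3, which blocks virus entry, read 5.48, 5.12 and 5.30 on the Meg3 arrays, against 4.87, 4.97 and 5.04 on the vector arrays (0.34, SE 0.13; limma adjusted p = 0.609). Parp10, a mono-ADP-ribosyltransferase, read 6.64, 6.67 and 6.84 on the Meg3 arrays, against 6.53, 6.03 and 6.54 on the vector arrays (0.35, SE 0.16; limma adjusted p = 0.773).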
